A study of Mus musculus with 6 samples.

Results

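The heterogeneous nuclear ribonucleoproteins (hnRNPs) and the tissue-specific splicing regulators were examined in heads of E9.0 mouse embryos as a set of 50 genes among the 24421 gene symbols of the count table. The set holds the 20 genes whose symbol begins with Hnrnp and 30 other regulators, namely the *Ptbp*, *Rbfox*, *Nova*, *Mbnl*, *Celf*, *Esrp*, *Elavl* and *Khdrbs* genes, *Qk*, *Tia1*, *Tial1* and *Srrm4*. The rule uses gene names alone, and no symbol was missing from the table. The 3 WT libraries are labelled SnrpB +/+, the 3 mutant libraries are labelled SnrpB+/-, and each library came from a pool of 2 heads. The mutants are *Snrpb* ncc+/- embryos, which carry one conditional (*loxP*) *Snrpb* allele and the *Wnt1-Cre2* transgene, so that exons of *Snrpb* are deleted from one copy in the neural tube and the neural crest cells, while the remaining cells of the head keep both copies. The labels name the strains C57BL/6 and CD1, and whether the WT pools carried the *Cre* transgene or the *loxP* allele alone is not stated in the sources used here. *Snrpb* encodes a core protein of the small nuclear ribonucleoproteins, the particles that recognize splice sites, and the comparison asks whether the RNA of proteins that act on the same splice sites differed between mutant and WT heads.

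hnRNPs are abundant nuclear proteins that coat pre-mRNA as it is made, and many of them bind silencer sequences in or beside exons and favour exon skipping. The tissue-specific regulators bind short motifs near alternative exons and switch whole programmes of exons on or off: RBFOX, NOVA, ELAVL and SRRM4 proteins are known from neurons, MBNL and CELF proteins from muscle and brain, and ESRP proteins from epithelia. Counts per gene measure the amount of RNA of each regulator, and neither its isoforms nor the splicing of its targets.

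WT libraries held 36378803 to 58946111 counted reads and mutant libraries 42398206 to 74909774. Levels are given in CPM, the counts after scaling to a common library size and composition. The targeted gene was measured at 430, 438 and 414 CPM in the WT libraries and at 437, 412 and 430 CPM in the mutant libraries. The log2 fold change was −0.004 ± 0.039 (SE, adjusted *P* = 0.99, edgeR), so the count of *Snrpb* in whole heads did not separate the genotypes. The paper reports a shorter *Snrpb* transcript from the deleted allele. Counts per gene would include its reads from the other exons, so this level does not show whether intact *Snrpb* RNA was reduced. Markers of the neural tube (694 to 887 CPM summed over 9 genes) and of the neural crest and mesenchyme (260 to 325 CPM over 9 genes) were present in all libraries, as were traces of heart muscle (14.7 to 163 CPM over 10 genes). WT replicate 1 stood apart: its markers of visceral endoderm and yolk sac summed to 35.9 CPM against 8.09 to 10.5 CPM in the other 5 libraries, and its neural tube markers were the highest. The summed level of 4 Y-linked genes was 62.8 to 120 CPM in WT and 111 to 228 CPM in mutants. For some genes in which WT replicate 1 was far from the other libraries, log2 fold changes without it are given too. For others, such as *Hnrnpf* and *Celf5*, they are not.

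The hnRNP genes were among the most abundant RNAs of the E9.0 head. In CPM per kb of annotated exons, the hnRNP genes had a median of 85.2 in WT (range 7.7 to 428), against a median of 4.21 over 14981 tested genes with a length, and 11 of the 20 lay above the 95th percentile of those genes. *Hnrnpab*, which binds RNA and single-stranded DNA, was the highest at 428, followed by *Hnrnpk*, a poly(C)-binding protein, at 252. *Hnrnpa0*, *Hnrnpc*, which binds uridine tracts, and *Hnrnph1*, which binds runs of G, were close to each other at 172, 166 and 161 per kb. The tissue-specific regulators were mostly low, with a median of 1.88 per kb over the 29 tested genes, and 17 of them lay below the 50th percentile. The exception above the 95th percentile was *Ptbp1*, the polypyrimidine tract-binding protein of non-neuronal cells and neural progenitors, at 146 per kb. At the other end were genes known from neurons: *Srrm4* had 0.204, *Rbfox1* 0.153 and *Khdrbs2* 0.0544 CPM per kb. *Celf6*, with 4 to 17 counts per library, was the 1 gene of the set that was too low to be tested. These levels depend on the length used. With the median length of the protein-coding transcripts in place of all annotated exons, a choice made after the data were seen, the medians were 171 for the hnRNP genes and 10.9 for the other regulators, *Hnrnpk* was the highest at 1710 with *Hnrnpab* second at 592, *Hnrnpr* was at 115 in place of 13.1 and *Nova1* at 23 in place of 1.4. The median of 4.21 and the percentiles above use all annotated exons, and levels with the transcript length were not set beside those of all genes. Of the 10 highest genes, 9 were the same with both lengths.

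**Figure D1:**
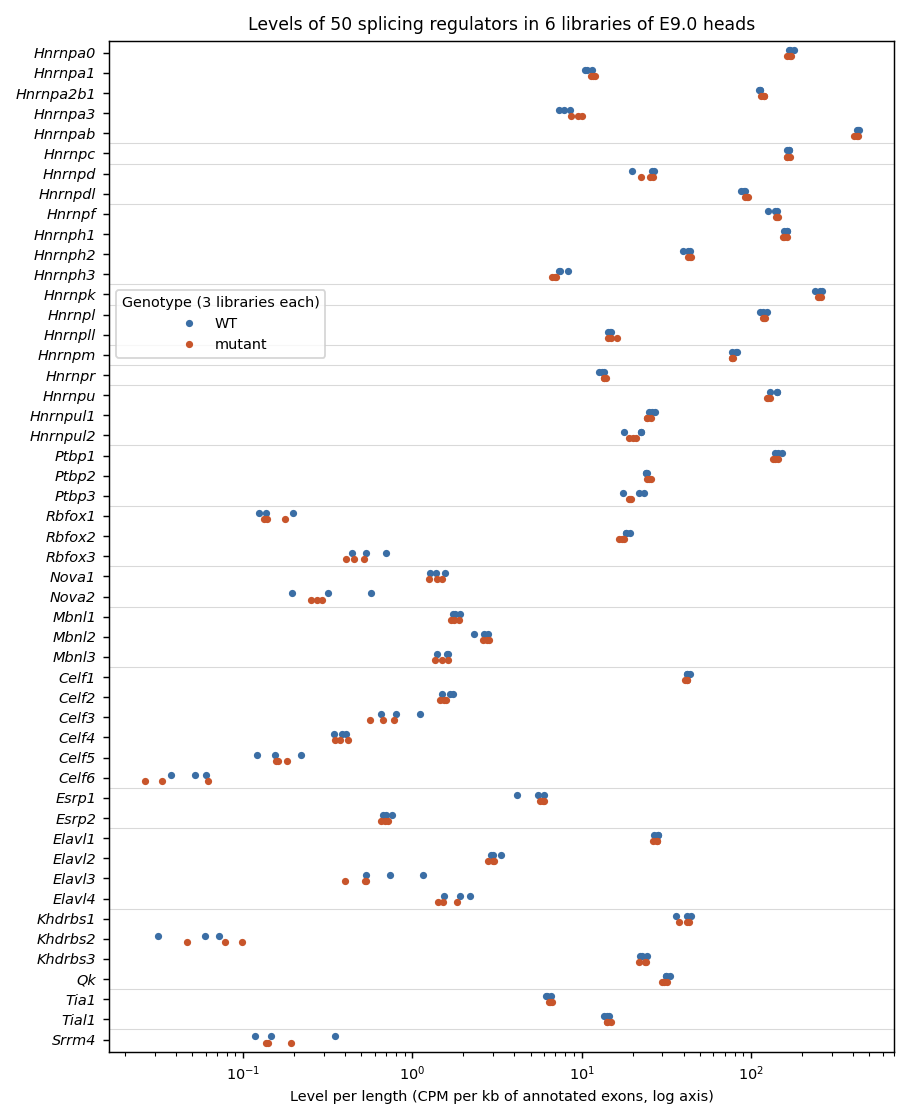
Level of the 50 regulators in CPM per kb of annotated exons (horizontal log axis) in the 3 WT (blue) and 3 mutant (orange) libraries, 1 point per library, grouped by family. The hnRNP genes lie between 7.7 and 428 in the WT mean, the neuronal regulators mostly below 1, and the 2 genotypes lie over each other in most genes.

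Some hnRNP genes have near-identical copies elsewhere in the genome, which bears on how their reads can be counted. *Hnrnpa1* (chromosome 15, 103240432 to 103246692, plus strand of mm10) encodes the best known exon-silencing hnRNP, yet it had 10.9 CPM per kb, far below *Hnrnpa2b1* at 113. Of the 100-base stretches of its protein-coding transcripts, 43% also occur in other genes, and for *Hnrnpf* and *Hnrnpa3* this share was 31.5% and 26.4%. Another 7 members had shares of 0.697% to 14.4%, and 40 had none. Reads that map to several places are often left out of gene counts, and how they were treated is not stated in the sources used here. Of the 10 genes that share coding stretches with *Hnrnpa1*, 2 are in the count table and 1, the pseudogene *Gm5643*, had counts (299 to 542 per library). The levels and changes of *Hnrnpa1*, *Hnrnpa3* and *Hnrnpf* are therefore uncertain, and the effect of the copies on them was not tested.

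No regulator of the set changed past the threshold in mutant heads. Among the 49 tested members, 0 had an adjusted *P* under 0.05 with edgeR's quasi-likelihood test, and 0 with DESeq2. The lowest adjusted *P* was that of *Hnrnpa3* with both methods, 0.433 with edgeR and 0.188 with DESeq2. Over all 15584 tested genes, edgeR called 0.00642% higher and 0% lower in mutants, and DESeq2 called 0.434% higher and 0.217% lower among 12908 genes. At an unadjusted *P* under 0.05, 1 member was higher and 4 were lower (edgeR), or 2.04% and 8.16% of the members, against 4.34% and 4.09% of all tested genes. With DESeq2, 1 member was higher and 4 were lower at an unadjusted *P* under 0.05, against 3.03% and 3.91% of the tested genes. All mutant libraries lay above all WT libraries in 5 members (10.2%, against 8.32% of tested genes) and below them in 4 members (8.16%, against 6.92%). The median log2 fold change was −0.026 over the members and 0.000 over all tested genes, with 21 positive and 28 negative values from −0.71 to 0.45. The hnRNP genes had a median of 0.006 (11 positive, 9 negative) and the other regulators −0.034 (10 positive, 19 negative). In whole heads, fewer cells that express a gene and less of its RNA per cell cannot be told apart.

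**Figure D2:**
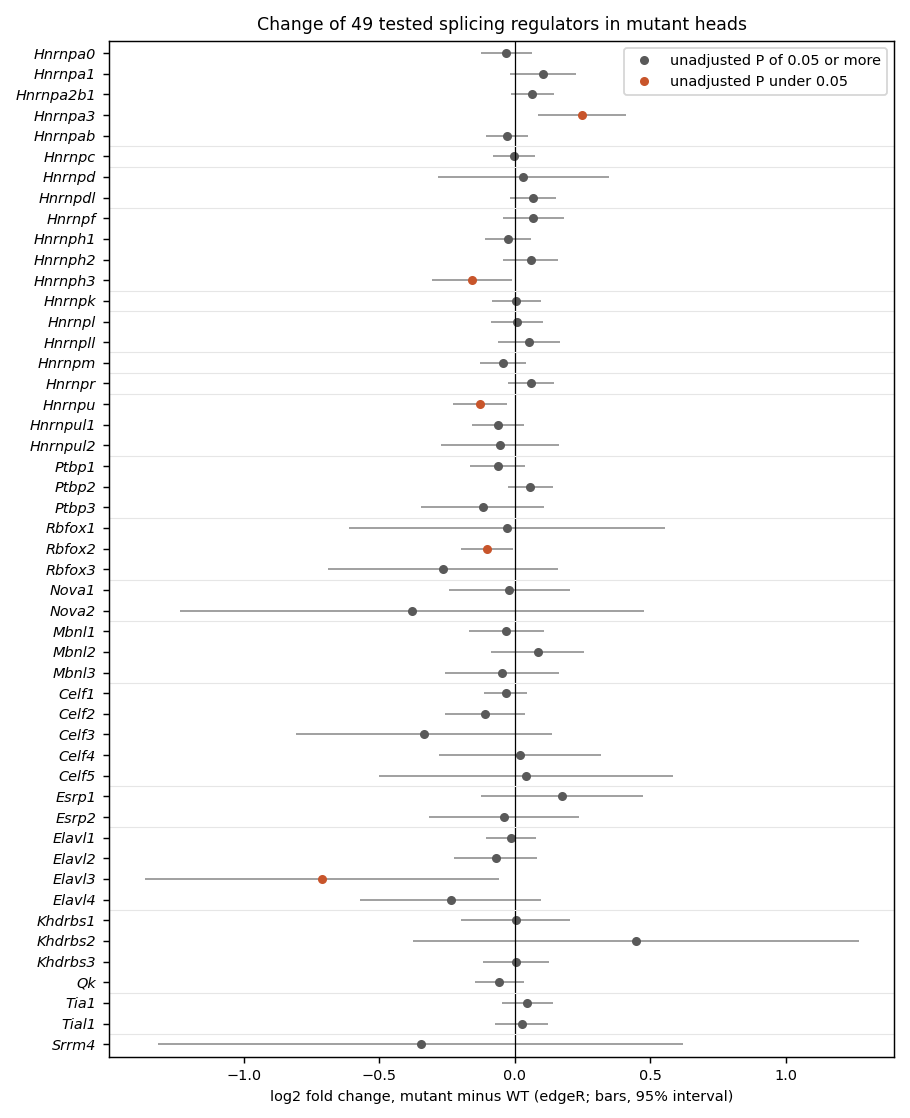
log2 fold change of mutant against WT (horizontal axis, edgeR) for the 49 tested regulators, with bars for the 95% interval; orange points have an unadjusted *P* under 0.05. The values lie between −0.71 and 0.45, the intervals are narrow for the hnRNP genes and wide for regulators with few counts, and 0 members passed the adjusted threshold.

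The lowest *P* of the set was that of *Hnrnpa3* (chromosome 2, 75659261 to 75669407), a relative of *Hnrnpa1* that binds RNA through the same kind of paired domains. It was measured at 42.7, 39.7 and 46.1 CPM in WT and at 46.8, 51.6 and 53.9 CPM in mutants. The 3 mutant libraries were the 3 highest, although the lowest mutant library was within 1 CPM of the highest WT library. The log2 fold change was 0.25 ± 0.072 (SE, unadjusted *P* = 0.00706, adjusted *P* = 0.433, edgeR), and it was 0.196 to 0.304 when each library was left out in turn, with an unadjusted *P* of 0.00312 to 0.0355 (edgeR).

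*Hnrnpu* (chromosome 1, 178321108 to 178337797), which binds RNA and chromatin and is also known as a scaffold attachment factor, was one of the highest genes in CPM. Its levels were 1662, 1508 and 1649 CPM in WT and 1464, 1439 and 1502 CPM in mutants. All mutant libraries were below all WT libraries, but mutant replicate 3 and WT replicate 2 nearly met. The log2 fold change was −0.13 ± 0.044 (SE, unadjusted *P* = 0.0164, adjusted *P* = 0.468, edgeR). *Hnrnph3* (chromosome 10, 63014664 to 63024217), a short member of the G-run-binding family, was measured at 26.2, 23.5 and 23.1 CPM in WT and at 22.1, 22.1 and 21 CPM in mutants. WT replicate 1 was the highest of these, and the log2 fold change of −0.158 (unadjusted *P* = 0.0381, edgeR) became −0.104 (unadjusted *P* = 0.101) without it. *Rbfox2* (chromosome 15, 77078990 to 77307004), the broadly expressed member of the family that binds TGCATG, had 148, 148 and 156 CPM in WT and 141, 136 and 145 CPM in mutants. The groups did not overlap, with a log2 fold change of −0.103 ± 0.042 (SE, unadjusted *P* = 0.0369, adjusted *P* = 0.55, edgeR). *Elavl3* (chromosome 9, 22015005 to 22052023), a neuronal RNA-binding protein and an early marker of differentiating neurons, had the lowest log2 fold change of the members. It was measured at 7.91, 3.68 and 5.05 CPM in WT and at 2.75, 3.6 and 3.66 CPM in mutants, where WT replicate 2 and mutant replicate 3 were almost equal. The log2 fold change was −0.71 ± 0.278 (SE, unadjusted *P* = 0.0367, adjusted *P* = 0.55, edgeR) and −0.368 without WT replicate 1 (unadjusted *P* = 0.0762).

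The lower members at an unadjusted *P* under 0.05 were partly other genes when a library was left out (edgeR). Without WT replicate 1 there were 4, of which *Hnrnpu* and *Rbfox2* were among the 4 above and *Hnrnpm* and *Ptbp3* were not. Without WT replicate 2 there were 9, the 4 above and 5 others. Without WT replicate 3 or mutant replicates 1, 2 and 3 there were 1, 1, 0 and 2, all from the 4 above, in fits with fewer libraries. Without mutant replicate 2, where none remained under 0.05, the log2 fold changes were −0.117 for *Hnrnpu*, −0.173 for *Hnrnph3*, −0.082 for *Rbfox2* and −0.775 for *Elavl3*. Over all fits with 1 library left out they were −0.173 to −0.109, −0.193 to −0.104, −0.130 to −0.077 and −0.948 to −0.368 in that order. When the mean level of Y-linked genes entered the fit as a covariate, 0 lower members were under 0.05, and the log2 fold changes were −0.062, −0.222, −0.029 and −0.648 for the same genes. All 4 Y-linked genes had positive log2 fold changes themselves (0.753 to 0.955, edgeR), so the covariate and the genotype can only partly be told apart there. *Hnrnpa3* was the 1 higher member in that fit too, with a log2 fold change of 0.369.

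**Figure D3:**
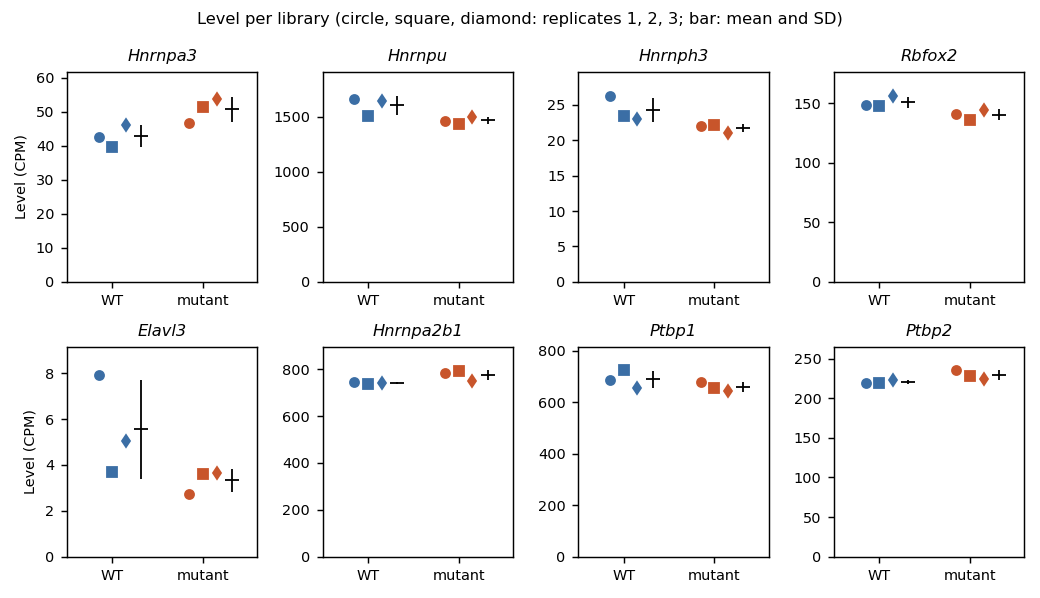
Level in CPM (vertical axis from 0) of the 5 members with an unadjusted *P* under 0.05 and of *Hnrnpa2b1*, *Ptbp1* and *Ptbp2*, with 1 symbol per library and the mean ± SD of each genotype beside it. The shifts between genotypes are small against the levels, and *Elavl3* shows the high WT replicate 1 at 7.91 CPM.

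The other hnRNP genes differed by at most 0.103 in log2 fold change. In the A/B family, which opposes exon-including SR proteins, *Hnrnpa1* had 33, 34 and 36.1 CPM in WT and 35.9, 37.9 and 36.9 CPM in mutants (log2 fold change 0.103, unadjusted *P* = 0.0874, edgeR), and its copy *Gm5643* averaged 8.5 ± 0.392 CPM (SD, *n* = 3) in WT against 6.98 ± 0.221 CPM (SD, *n* = 3) in mutants, with −0.284 as its log2 fold change (adjusted *P* = 0.436, edgeR). *Hnrnpa2b1* had 746, 736 and 742 CPM in WT and 783, 791 and 751 CPM in mutants, groups that did not overlap although the log2 fold change was 0.064. *Hnrnpab* was nearly level, with 1190, 1205 and 1182 CPM in WT and 1198, 1136 and 1173 CPM in mutants. The remaining member of the family, *Hnrnpa0*, had a value of −0.031.

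Several hnRNP genes of other families were also nearly level. *Hnrnpk* had 1554, 1648 and 1691 CPM in WT and 1673, 1623 and 1613 CPM in mutants. *Hnrnpc* had 706, 722 and 730 CPM in WT and 732, 711 and 711 CPM in mutants, and its highest library was 1.04 times its lowest, the smallest such ratio of the set. Both had log2 fold changes within 0.004 of 0. *Hnrnpl*, which binds CA repeats, had 742, 674 and 699 CPM in WT and 697, 712 and 718 CPM in mutants, and *Hnrnpm*, which binds GU-rich sequence, had 611, 649 and 654 CPM in WT and 621, 617 and 617 CPM in mutants. In neither did the libraries separate by genotype. *Hnrnph1* had 920, 957 and 949 CPM in WT and 919, 958 and 898 CPM in mutants, so the mutants spanned the WT range.

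*Hnrnpr* and *Hnrnpdl* were the other hnRNP genes whose mutant libraries lay above all WT libraries. *Hnrnpr* had 283, 293 and 300 CPM in WT and 301, 309 and 302 CPM in mutants, with less than 1 CPM between the groups. *Hnrnpdl*, whose RNA is known to be spliced into decay-prone forms by its own protein, had 419, 447 and 439 CPM in WT and 447, 461 and 459 CPM in mutants. Mutant replicate 1 and WT replicate 2 almost touched, at 446.5 CPM when rounded. Of the rest, *Hnrnpd*, which binds AU-rich elements, had a wide spread, with 145 CPM in WT replicate 2 and 165 CPM in mutant replicate 1 against 186 to 198 CPM in the other 4 libraries. *Hnrnpul2* and *Khdrbs1* were lowest in the same 2 libraries, at 127 and 134 CPM and at 232 and 241 CPM, and this shared dip crossed the genotypes. *Hnrnpf*, *Hnrnph2*, *Hnrnpll* and *Hnrnpul1* had log2 fold changes from −0.064 to 0.068.

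The PTB proteins bind pyrimidine tracts and repress exons. *Ptbp1* is replaced by *Ptbp2* as progenitors become neurons, a switch that releases neuronal exons. *Ptbp1* had 688, 724 and 657 CPM in WT and 680, 658 and 643 CPM in mutants, and *Ptbp2* had 219, 219 and 223 CPM in WT and 236, 228 and 224 CPM in mutants. The *Ptbp2* mutants were all above the WT libraries, by less than 1 CPM at the closest, and *Ptbp1* overlapped. Neither passed the threshold (log2 fold change −0.063 and 0.057, adjusted *P* = 0.724 and 0.7, edgeR). The ratio of *Ptbp2* to *Ptbp1* counts, which does not depend on scaling, was 0.318, 0.303 and 0.339 in WT and 0.346, 0.347 and 0.348 in mutants. All 3 mutant ratios were above the WT ratios and lay close together. The log2 ratio differed by 0.119 (*P* = 0.1 by a two-sided exact permutation test, which is the lowest that 3 against 3 libraries allow), with values of 0.080 to 0.162 when each library was left out. *Ptbp3*, known from blood cells, was lowest in WT replicate 1, with 132, 164 and 175 CPM in WT and 145, 143 and 146 CPM in mutants, and its log2 fold change was −0.119 with all libraries and −0.232 without that one.

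The regulators that are used in many tissues were close to level. *Celf1*, a GU-binding protein that opposes MBNL proteins in heart and muscle, was by far the highest of its family, with 367, 356 and 354 CPM in WT and 356, 343 and 352 CPM in mutants. *Mbnl1*, which promotes mature splice forms, had 33.3, 35.7 and 32.5 CPM in WT and 31.5, 35.1 and 32.8 CPM in mutants, and *Mbnl2* had 27.6, 31.9 and 33.7 CPM in WT and 31.3, 34.1 and 33.3 CPM in mutants. In all 3 genes the groups overlapped, and the log2 fold change of *Mbnl2* was 0.084 with all libraries and 0.003 without WT replicate 1, its lowest. *Mbnl3*, which is X-linked, had a log2 fold change of −0.049. *Elavl1*, the general member of its family, which stabilizes mRNAs with AU-rich elements, had 292, 277 and 293 CPM in WT and 290, 289 and 274 CPM in mutants. *Qk*, the quaking gene, which acts in glia and vessels, had 451, 447 and 472 CPM in WT and 455, 434 and 427 CPM in mutants. Its mutants overlapped with WT through replicate 1 (log2 fold change −0.058). *Khdrbs1*, which encodes SAM68, had 286, 232 and 270 CPM in WT and 241, 271 and 277 CPM in mutants, and *Tial1*, which helps recognition of weak donor splice sites, had 101, 94.1 and 97.6 CPM in WT and 97.9, 102 and 97.5 CPM in mutants. *Khdrbs3* and *Tia1* had log2 fold changes of 0.003 and 0.046.

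The regulators known from neurons were mostly low, and in several of them libraries of the same genotype differed widely. *Nova2*, which controls exons of synaptic and axon guidance genes, had 4.75, 1.64 and 2.65 CPM in WT and 2.27, 2.11 and 2.45 CPM in mutants, and *Srrm4*, which includes neuronal microexons, had 3.02, 1.02 and 1.27 CPM in WT and 1.18, 1.22 and 1.67 CPM in mutants. In both, WT replicate 1 was far above the other libraries and WT replicate 2 was the lowest. Their log2 fold changes of −0.381 and −0.348 became 0.110 and 0.264 without WT replicate 1. *Celf3* and *Rbfox3*, added here after their values were seen, also peaked in that library, at 6.1 and 4.07 CPM against 3.08 to 4.41 and 2.36 to 3.08 CPM in the others. Their log2 fold changes were −0.336 and −0.265 with all libraries and −0.105 and −0.073 without it. *Elavl4* peaked in WT replicate 3, with 10.4, 8.31 and 11.8 CPM in WT and 7.65, 9.87 and 8.12 CPM in mutants (log2 fold change −0.237, or −0.118 without WT replicate 3 and −0.368 without WT replicate 2). *Nova1* was more even, at 13.6, 11.2 and 12 CPM in WT and 12.2, 11 and 13 CPM in mutants. *Celf2*, *Celf4*, *Celf5*, *Elavl2* and *Rbfox1* had log2 fold changes from −0.111 to 0.041. Of these, *Celf2*, *Celf4* and *Elavl2* varied less, with a highest library 1.21, 1.21 and 1.19 times the lowest. *Khdrbs2* had the largest positive value of the set, 0.446, on 12 to 77 counts, with 0.742, 0.613 and 0.324 CPM in WT and 0.805, 1.01 and 0.481 CPM in mutants. The groups overlapped, and the value was 0.164 without mutant replicate 2.

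Neuron markers were also highest in WT replicate 1 on the whole. Of the 12 markers, none of which was at 0, 9 had their highest level there, while *Stmn2*, *Isl1* and *Gap43* did not and *Isl1* was lowest there. The markers summed to 216 CPM in WT replicate 1, to 174 and 189 CPM in the other WT libraries and to 163 to 179 CPM in the mutants. Of the 12, 11 had a negative log2 fold change and 0 passed the threshold (edgeR). *Tubb3* alone gave 102 CPM of the sum in that library. The 9 neural tube markers all peaked there and summed to 887 CPM in WT replicate 1 and to 694 to 737 CPM in the other 5 libraries. Markers of other cell types differed there as well. Those of primitive erythroid cells summed to 1498 CPM against 882 to 1218 CPM in the other 5 libraries, and those of heart muscle to 14.7 CPM against 44.2 to 163 CPM. The part of these cell types in the values of *Elavl3*, *Nova2*, *Srrm4*, *Celf3* and *Rbfox3* was not tested. WT replicate 1 was the highest library in 18 of the 50 members and the lowest in 14. These counts, and those of the markers that peaked there, were not set beside the counts of all tested genes. They therefore do not show a trait of the set or of the markers.

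**Figure D4:**
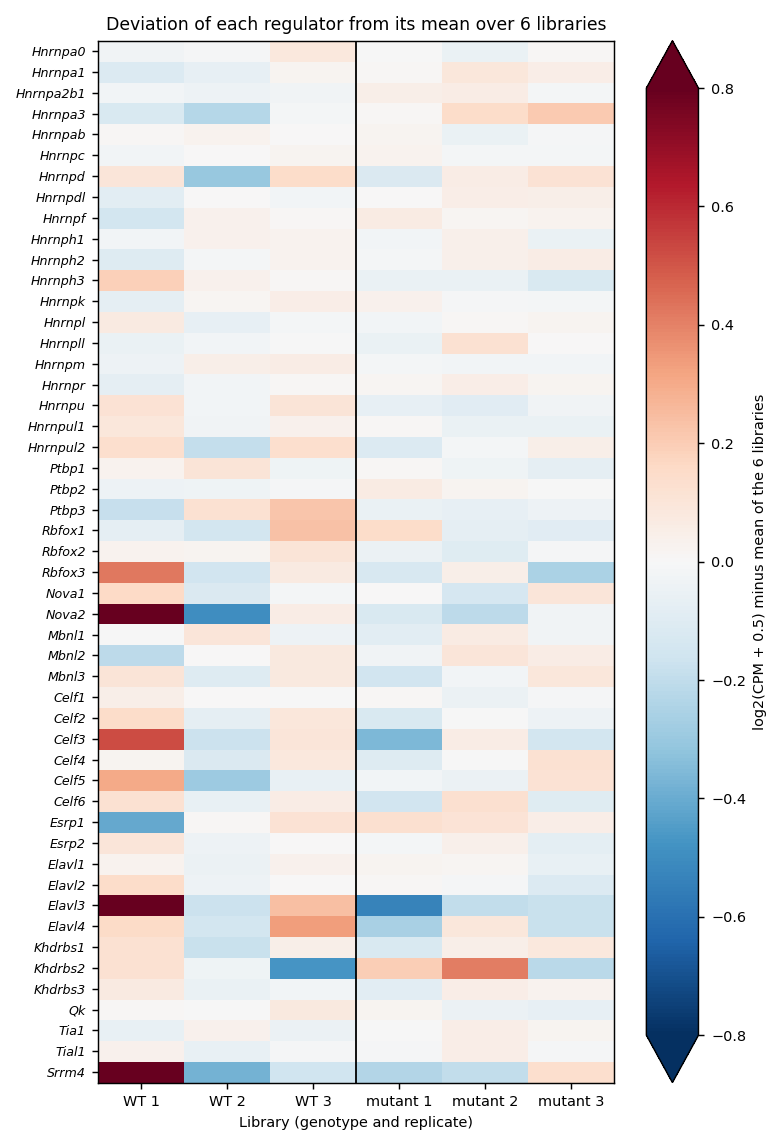
Deviation of each of the 50 regulators from its own mean over the 6 libraries, in log2(CPM + 0.5), with columns for the libraries and a black line between WT and mutant; the colour scale ends at 0.8 on either side. The strongest colours are in neuronal genes of WT replicate 1, and most hnRNP rows are pale in all libraries.

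*Esrp1*, which selects the epithelial exon of *Fgfr2* and is typical of epithelia, showed the opposite pattern. It had 26, 34.9 and 37.7 CPM in WT and 38, 37.4 and 36 CPM in mutants, so that WT replicate 1 was low and the other 5 libraries lay between 34.9 and 38 CPM. The log2 fold change was 0.173 with all libraries and 0.029 without WT replicate 1. Of the 11 epithelium markers, none of which was at 0, 9 had their lowest level in that library, and together they summed to 395 CPM in WT replicate 1 and to 535 to 542.5 CPM in the other 5 libraries. Their part in the level of *Esrp1* was not tested, and the count of 9 was not set beside that of all tested genes. *Esrp2*, its paralog, did not follow, with a log2 fold change of −0.039 and a highest library 1.15 times the lowest.

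**Figure D5:**
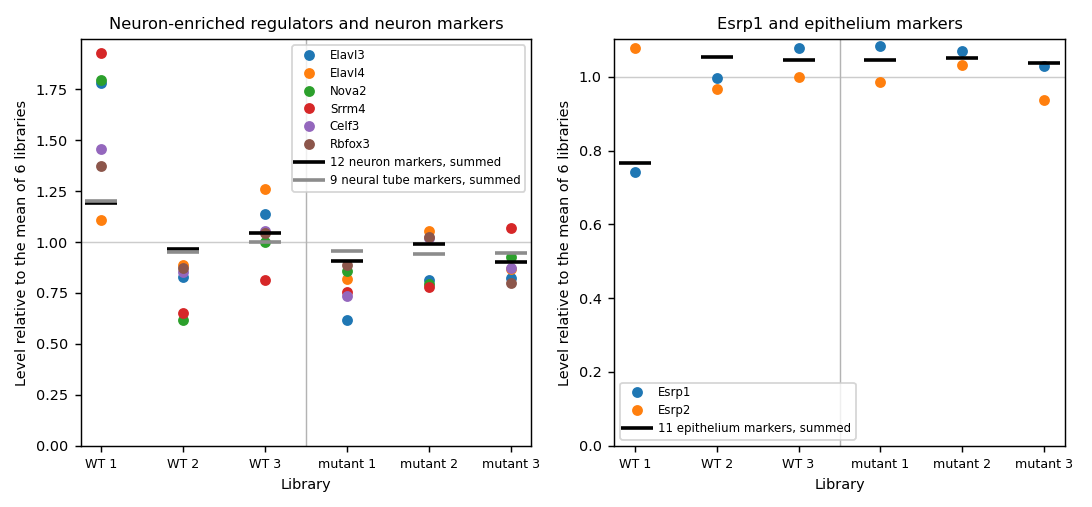
Level of *Elavl3*, *Elavl4*, *Nova2*, *Srrm4*, *Celf3* and *Rbfox3* (left) and of *Esrp1* and *Esrp2* (right) in each library, relative to the mean of the 6 libraries (vertical axis from 0). Horizontal bars show the summed markers of neurons, neural tube progenitors and epithelium. Other regulators known from neurons are not drawn, among them *Rbfox1*, which was highest in WT replicate 3. In WT replicate 1 the neuronal regulators drawn and the summed neuron and neural tube markers are above 1. *Esrp1* and the summed epithelium markers are below 1 there.

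Other RNA-binding proteins of the splicing pathway were counted beside the set. Of 70 such genes in the table, 68 were tested, 0 passed the threshold with edgeR or DESeq2, and 4 were higher and 6 lower at an unadjusted *P* under 0.05 (edgeR), or 5.88% and 8.82%, against 4.34% and 4.09% of all tested genes. Their median log2 fold change was −0.003. The lowest *P* was that of *Rbm39*, a splicing coactivator, with 410, 435 and 406 CPM in WT and 465, 467 and 453 CPM in mutants (log2 fold change 0.147, adjusted *P* = 0.424, edgeR). *Igf2bp3*, which binds and stabilizes mRNAs in embryos, had 460, 448 and 473 CPM in WT and 419, 421 and 427 CPM in mutants. *Raver1*, a cofactor of PTBP1, had 24.2, 20.6 and 21.2 CPM in WT and 20.3, 16.3 and 16.7 CPM in mutants. *Fubp1*, which binds introns and upstream DNA, had 641, 659 and 673 CPM in WT and 719, 706 and 701 CPM in mutants. In these 4 genes, chosen for their low *P*, the groups did not overlap, and log2 fold changes were −0.126, −0.315 and 0.109 for the last 3.

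The precision differed between the families. The highest library was less than 1.2 times the lowest in 28 of the 50 members, 16 of them hnRNP genes, and 1.5 times or more in 10. The 95% interval of the fold change lay within 1.5-fold in either direction for 42 of the 49 tested members, which included all 20 hnRNP genes, and within 1.2-fold for 32 (16 hnRNP genes and 16 others). The 7 members with wider intervals were *Rbfox1*, *Rbfox3*, *Nova2*, *Celf3*, *Elavl3*, *Khdrbs2* and *Srrm4*, so their intervals leave room for a change of 1.5-fold or more. The members together took 1.38 ± 0.0151% of counted reads in WT and 1.37 ± 0.0119% in mutants (SD, *n* = 3 libraries each). The hnRNP genes took 1.07% in both, and the other regulators took 0.308 ± 0.00269% and 0.303 ± 0.00373%.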

How the data were processed

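RNA of E9.0 heads was depleted of ribosomal RNA and sequenced from stranded libraries by the authors, who mapped reads to mm10 with STAR and used Gencode M2. The deposited values are raw counts per gene symbol. The paper names HTSeq and the submitters' processing notes name featureCounts as the counter, and the strand setting is not given in the sources used here; 35 of the 50 members overlap another annotated gene.

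The quasi-likelihood test of edgeR 4.0.16 (in R 4.3.3) was applied to the counts with TMM normalization, robust dispersions and no covariates. The filter (filterByExpr) kept 15584 genes and left out 8837, and Benjamini-Hochberg adjustment ran over the tested genes (threshold 0.05). Standard errors (SE) refer to log2 values. They were calculated from the log2 fold change and the F statistic of the edgeR test, and the 95% intervals rest on them. As an alternative, DESeq2 1.42.0 was run, which the authors had used. The common biological coefficient of variation was 0.0871. Between libraries, chi-square divided by its degrees of freedom was 10.2 to 28.3 once depth was scaled, so none was a copy of another. Lengths, positions and the share of transcript stretches found in other genes come from Gencode M21, later than the authors' annotation, in which 23334 of the 24421 symbols matched 1 gene. Levels per length divide CPM by the kb of all annotated exons. The scripts were tested on simulated data.

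The members and gene lists were chosen with earlier results of these data known. A member is given in every library where its unadjusted *P* is under 0.05, where it has one of the 3 largest rises or falls or the highest level per length of its family, or where it is one of 16 well studied regulators. Of the related regulators, the 4 with the lowest *P* are named. Alternatives were DESeq2, other normalizations and filters, a replicate block, the Y-linked level as a covariate and leaving out each library. Deviations of libraries with the same replicate number had correlations of 0.169, 0.032 and 0.360, against −0.245 to 0.088 for different numbers. The sources used here do not call the numbers pairs, and the main fit did not treat them as pairs. Figures were drawn with matplotlib. A sequence comparison within the hnRNP A/B family is not reported here.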

Additional observations from a re-analysis of the deposited data

How the results depend on the processing

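In all 13 alternatives, 0 members passed the adjusted threshold, and so did 0 related regulators. The number of members at an unadjusted *P* under 0.05 was less steady (edgeR): with 1 library left out it was 1 to 2 for higher members and 0 to 9 for lower members, and with the Y-linked level as a covariate it was 0 for lower members. In the 30 named members, 367 of 390 refitted values kept their direction and 23, in 10 genes, changed it. With all libraries in the fit these were *Hnrnpc* (0.009 with library size alone, 0.000 with at least 10 counts in every library, 0.007 with the Y-linked covariate), *Nova1* (0.099) and *Khdrbs2* (−0.440) with the Y-linked covariate, and *Khdrbs1* (−0.001) with DESeq2. Leaving out each library gave log2 fold changes of −0.033 to 0.031 for *Hnrnpk*, −0.019 to 0.007 for *Hnrnpc*, −0.023 to 0.043 for *Hnrnpl*, −0.085 to 0.056 for *Nova1*, −0.700 to 0.110 for *Nova2*, −0.076 to 0.012 for *Mbnl1*, −0.041 to 0.006 for *Elavl1*, −0.079 to 0.065 for *Khdrbs1* and −0.650 to 0.264 for *Srrm4*. *Celf3* (−0.507 to −0.105) and *Rbfox3* (−0.416 to −0.073) kept their direction. The cause of these changes was not tested. The median log2 fold change of the members was −0.041 to −0.002 with 1 library left out. With a replicate block, in which the shared replicate numbers stand for pairs, 1 gene passed the threshold as without it. In that fit 0 members passed, and the lowest adjusted *P* of the members was 0.339 (edgeR). The difference in the log2 ratio of *Ptbp2* to *Ptbp1* was 0.119 (exact permutation test within pairs, *P* = 0.25). That *P* is the lowest that 3 pairs allow, so it cannot be read as weaker than the unpaired one. With 3 libraries per genotype, pools of heads in which only part of the cells carry the deletion, and counts that do not resolve exons, changes in few cells or in isoforms could not be detected.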
